A study of Mus musculus with 12 samples.

Results

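The endothelial and mural cell genes are 32 genes known as markers of the cells of brain vessels, of which 23 mark endothelium and 9 mark mural cells. A member was measured by the probes that carried its symbol as their only gene symbol in the platform annotation and that were detected, with a detection p under 0.05, on 6 or more of 12 arrays. By this rule 27 genes, 19 endothelial and 8 mural, were tested, out of 10933 genes tested in all. They were read by 36 of the 20296 tested probes. Of the other 5 genes, Ly6a and Slc7a5 had no probe with that single symbol in the annotation used and were not analysed here. The single probe of Abcb1a, the drug efflux pump P-glycoprotein, and both probes of Tagln, a smooth muscle actin-binding protein, were detected on 0 arrays. Of the 2 probes of Bsg, a chaperone of lactate transporters, one was detected on 1 array and the other on 0. A probe that was not well above background gives no statement on the amount of its transcript.

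RNA came from the caudate putamen (dorsal striatum) of male C57BL/6J mice aged 12 weeks. The 6 ethanol samples were from offspring of mothers with voluntary access to 10% (v/v) ethanol from day 0.5 to day 8.5 of gestation, and the other 6 were controls, whose own drink the labels do not give. The ethanol protocol is attached to the controls as well, and the groups rest on the treatment label. Each sample had its own array, and each of 2 chips held 3 ethanol and 3 control samples, replicates 1 to 3 on chip 1 and 4 to 6 on chip 2. The labels do not say whether samples came from separate litters or mice, so that p-values measure only the spread between these samples.

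Endothelial cells line the vessels of the brain and form the blood-brain barrier, through tight junctions that seal the gaps between cells and transporters that choose what passes. Mural cells wrap this tube: pericytes on capillaries, recruited by platelet-derived growth factor, and contractile smooth muscle cells on arterioles. Vascular endothelial growth factor and the angiopoietins, acting on receptors of the endothelium, guide the growth and upkeep of the network.

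The arrays detected 19452 to 21949 of 45281 probes, and the raw median intensity lay between 136.1 and 153.2. The tissue label was borne out by Ppp1r1b, a phosphoprotein of striatal projection neurons, which had a log2 level of 14.43 to 15.09 over the 12 samples, and the receptor Drd1, at 12.29 to 12.91. Some samples stood apart in genes of other cells and regions. The mean log2 level of 6 thalamus genes was 8.87 in ethanol 3 and 8.88 in ethanol 4, and 7.62 to 8.01 in the other samples. The mean log2 level of 8 oligodendrocyte genes was 12.96 in both ethanol 3 and control 4, lowest in ethanol 4 at 11.63, and 12.17 to 12.46 in the rest. The mean log2 level of 2 choroid plexus genes was 11.07 in ethanol 3, 10.26 in ethanol 4 and 10.00 in control 4. In the other samples it was 7.55 to 9.75, so that control 4 lay close to their top. Of these genes, Ttr ran from 5.44 to 10.35 in controls and from 6.55 to 12.43 in ethanol samples. Clic6 ran only from 9.62 to 9.95 and from 9.38 to 10.20, so the spread of the mean came mostly from Ttr. The counts of vessel genes with higher values are therefore also given without ethanol 3, ethanol 4 and control 4.

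Vessel genes differed more from sample to sample than most genes did, and endothelial and mural genes were high and low in largely the same samples. Within groups the median SD of the log2 level was 0.26 for endothelial and 0.27 for mural genes, against 0.19 for all tested genes. The mean deviation of the 19 endothelial genes from their own means was highest in control 2 (0.22), control 4 (0.20) and ethanol 3 (0.20). It was lowest in ethanol 4 (−0.22) and control 1 (−0.15). The 8 mural genes deviated most upward in ethanol 3 (0.27) and control 4 (0.22) and most downward in ethanol 4 (−0.23) and ethanol 6 (−0.16). High and low samples were thus found in both groups and on both chips. In these bulk samples, fewer cells of a type and less RNA per cell cannot be told apart.

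**Figure D1:**
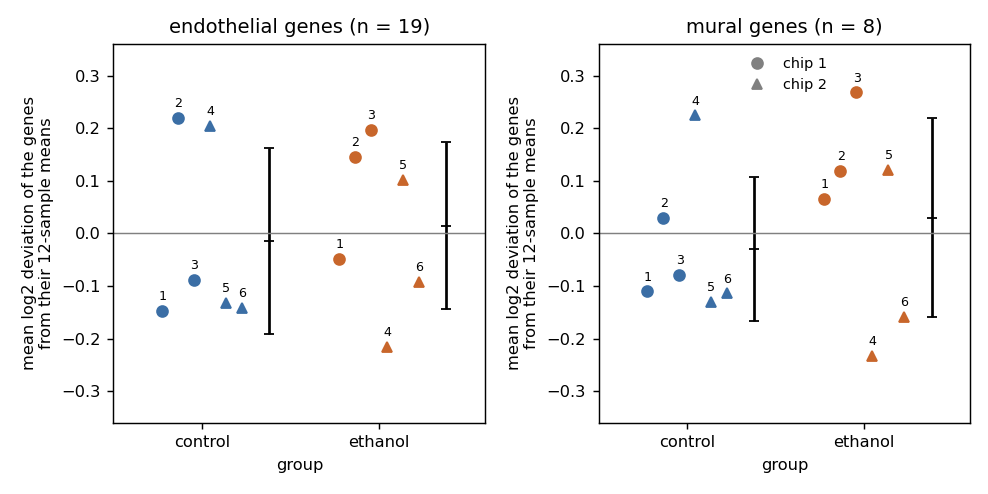
Mean deviation of the endothelial genes (left, 19 genes) and mural genes (right, 8 genes) from their own 12-sample means, in log2 units, for each control and ethanol sample. Points carry the replicate number, circles are chip 1 and triangles chip 2, and the black bars give each group's mean and SD over 6 samples. Both groups span 0, with control 2, control 4 and ethanol 3 at the top and ethanol 4 at the bottom for endothelial genes.

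Counted gene by gene, 24 of 27 members lay above their own 12-sample median in ethanol 3 and 24 in control 4, against 5 in ethanol 4 and 5 in control 1. Over all tested genes, the share above the median ran only from 46.2% to 52.1% of genes per sample. Ethanol 4 held the lowest level of 9 members, control 4 the highest of 7, and control 2 and ethanol 3 the highest of 5 each. The levels of other cell types moved with this in part. Astrocyte genes had their highest mean log2 levels in ethanol 3 (10.32) and control 4 (10.15), against 9.46 to 9.92 elsewhere. In control 2, by contrast, oligodendrocyte genes were at 12.17 and astrocyte genes at 9.53, while the endothelial genes were at their highest. The part of other cell types in the vessel gene levels was not tested.

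**Figure D2:**
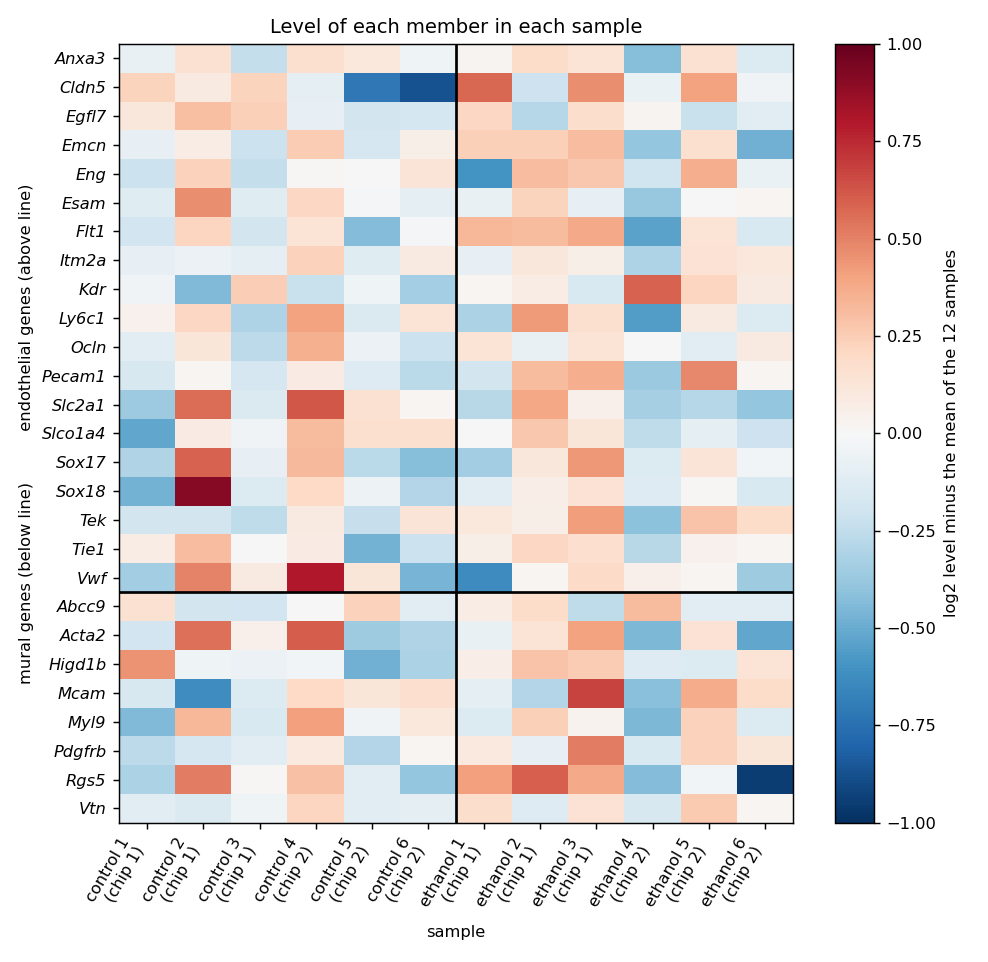
Log2 level of each member (rows) in each sample (columns) minus the gene's mean over the 12 samples, on a scale from −1 (blue) to 1 (red). Endothelial genes lie above the horizontal line and mural genes below it, and controls lie left of the vertical line. Ethanol 4 is mostly blue with Kdr and Abcc9 red, and control 4 mostly red.

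Single members did not all follow this order. Acta2, the actin of smooth muscle, had its highest levels in control 4 (10.78) and control 2 (10.73), and Myl9, the light chain of smooth muscle myosin, likewise in control 4 (8.09) and control 2 (8.01). Slc2a1, the glucose transporter of the barrier, was highest in the same samples (11.72 and 11.67), as was Vwf, von Willebrand factor (8.49 and 8.19). Flt1, a receptor for vascular endothelial growth factor, and Emcn, the surface sialomucin endomucin, were instead highest in ethanol 3 (10.45 and 9.01). Kdr, the main signalling receptor for the same growth factor, ran the other way from most members, highest in ethanol 4 (6.24) and lowest in control 2 (5.21). Abcc9, a potassium channel subunit of pericytes, was also highest in ethanol 4 (6.74). Kdr was detected on 11 of 12 arrays and Abcc9 on 12.

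The 250 bases upstream of the start sites of Acta2, Myl9, Flt1 and Emcn are shown as examples. By their brightest probes, the contractile pair was highest in control 4 and the endothelial pair in ethanol 3. This does not single out the pairs, since control 4 held the highest level of 7 members and ethanol 3 of 5. Sequences are from RefSeq (GRCm38.p6), 5′ to 3′ on the gene's strand. Acta2 lies at chr19:34255374-34255623 (minus strand), Myl9 at chr2:156775214-156775463 (plus), Flt1 at chr5:147726012-147726261 (minus) and Emcn at chr3:137340828-137341077 (plus). Capitals mark the CArG box, the site of serum response factor, with at most 1 G or C in its central A/T run, and the ETS motif CNGGAAG, each searched on both strands. No match overlapped another.
Acta2: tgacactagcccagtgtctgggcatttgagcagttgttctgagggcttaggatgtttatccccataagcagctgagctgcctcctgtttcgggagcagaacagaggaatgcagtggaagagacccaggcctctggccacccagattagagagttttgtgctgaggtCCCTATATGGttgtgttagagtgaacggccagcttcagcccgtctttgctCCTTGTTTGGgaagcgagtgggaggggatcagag
Myl9: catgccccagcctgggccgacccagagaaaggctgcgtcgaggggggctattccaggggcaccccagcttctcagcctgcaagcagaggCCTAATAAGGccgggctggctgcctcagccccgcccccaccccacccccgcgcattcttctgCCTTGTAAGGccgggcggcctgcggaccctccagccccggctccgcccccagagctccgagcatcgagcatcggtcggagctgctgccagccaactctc
Flt1: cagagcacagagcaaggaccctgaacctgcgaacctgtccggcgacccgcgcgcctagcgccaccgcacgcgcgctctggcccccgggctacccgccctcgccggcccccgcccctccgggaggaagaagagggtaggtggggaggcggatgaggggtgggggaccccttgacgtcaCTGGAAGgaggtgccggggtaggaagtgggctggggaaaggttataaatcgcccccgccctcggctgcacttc
Emcn: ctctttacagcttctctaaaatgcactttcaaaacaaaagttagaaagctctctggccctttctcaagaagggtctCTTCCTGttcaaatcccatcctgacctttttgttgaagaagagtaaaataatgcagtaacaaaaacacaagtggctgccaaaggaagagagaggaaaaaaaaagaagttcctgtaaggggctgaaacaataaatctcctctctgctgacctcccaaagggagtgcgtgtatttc

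Acta2 and Myl9 each held 2 such CArG matches, and Flt1 and Emcn each held 1 ETS match. Of the 27 tested members, 19 had an entry in the promoter table. Among these, 7 held a CArG match of this kind, where 9.8% of 27025 genes do. They were Acta2, Myl9 and the endothelial genes Egfl7, Eng, Kdr, Slco1a4 and Ocln, so the match was not confined to contractile genes. An ETS match was held by 5, where 29.2% of genes do: Egfl7, Emcn, Tie1, Flt1 and Itm2a. The strict CArG box, with no G or C in the run, was found in 1 member, Myl9, and in 1.62% of genes. These matches describe letters in the window and no difference in their shares was tested.

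The comparison of ethanol with control asked whether exposure in early gestation left a difference in vessel genes of the adult striatum. No member passed. Across the 20296 tested probes limma's test called 0 (0%) at an adjusted p of 0.05, and 1175 had an unadjusted p under 0.05. Of the 27 members 0 passed, with adjusted p between 0.850 and 0.999, and 0 had an unadjusted p under 0.05, where 5.27% of all tested genes did, 2.93% with higher and 2.34% with lower values in ethanol samples. Ethanol and control levels overlapped in all 27 members, and 0.329% of all tested genes separated the groups fully. Log2 differences, ethanol minus control, ran from −0.28 to 0.38 with standard errors (SE) of 0.09 to 0.24. For 24 of 27 members both ends of the 95% interval were within 1.5-fold of no difference, against 92.6% of all tested genes, and for 27 they were within 2-fold.

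Endothelial genes had higher values in ethanol samples in 11 of 19 members, with a median log2 difference of 0.03, and mural genes in 5 of 8, with a median of 0.07. Over all tested genes 52.3% were higher, with a median of 0.01. When arrays were scaled to one median instead, the endothelial count was 8 of 19, the mural count stayed at 5 of 8, and the share of all 27 members that were higher went from 59.3% to 48.1%. The share over all tested genes moved alike, from 52.3% to 41.0%, and their median from 0.01 to −0.03, so that each count with median scaling below stands against 41.0%. Without ethanol 3 and ethanol 4, 18 of 27 members were higher, where 50.8% of all tested genes were. Without control 4 as well, it was 22 of 27, where 51.4% of all tested genes were. In each case 0 members passed the threshold. These samples were left out after seeing the data. Vessel genes were high in ethanol 3 and control 4 and low in ethanol 4, so leaving them out moves the counts by itself. By role, the counts without ethanol 3 and ethanol 4 were 3 of 4 junction and adhesion genes, 5 of 5 receptors, 0 of 2 transporters, 0 of 2 transcription factors, 3 of 6 surface and secreted proteins, 6 of 6 pericyte genes and 1 of 2 contractile genes. Without control 4 as well, they were 4, 5, 1, 1, 4, 6 and 1 in the same order. The mean log2 level of the endothelial genes was 8.19 ± 0.18 in controls and 8.22 ± 0.16 in ethanol samples, and that of the mural genes 7.72 ± 0.14 and 7.78 ± 0.19 (SD, n = 6).

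**Figure D3:**
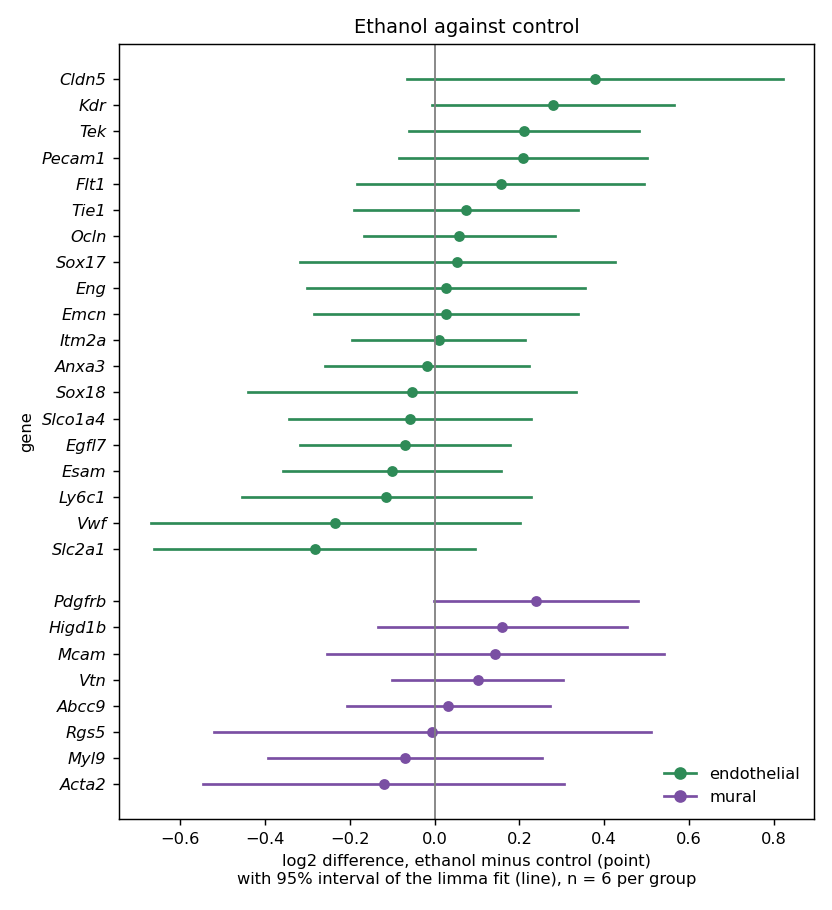
Log2 difference between ethanol and control samples (points, ethanol minus control) with its 95% interval from limma's fit (lines), n = 6 per group, for 19 endothelial (green) and 8 mural (purple) genes. Each of the 27 intervals includes 0, with Cldn5 (0.38) at the top and Slc2a1 (−0.28) at the bottom.

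Of the junction and adhesion genes, 3 of 4 had higher values in ethanol samples. Cldn5, the claudin that seals the brain endothelial tight junction, had the largest difference of any member. Its log2 level ran from 8.86 to 9.96 in controls, with a median of 9.73, and from 9.53 to 10.31 in ethanol samples, with a median of 9.91. The low end came from control 5 (9.02) and control 6 (8.86), while the other 4 controls, at 9.64 to 9.96, lay inside the ethanol range. The difference was 0.38 (SE 0.21, adjusted p = 0.854 in limma's test). With chip as a block its unadjusted p was 0.0489 and its adjusted p 0.766. Pecam1, an adhesion molecule at endothelial contacts, ran from 6.56 to 6.92 in controls and from 6.46 to 7.31 in ethanol samples, a difference of 0.21 (SE 0.14). Without ethanol 4 the difference was 0.30, with an unadjusted p of 0.0244 and an adjusted p of 0.929 in limma's test. Its dimmer probe differed by −0.00 (SE 0.19). Ocln, the tight junction protein occludin, was near background, detected on 4 control and 5 ethanol arrays, and differed by 0.06 (SE 0.11). For Esam, an endothelial adhesion molecule, the difference was −0.10 (SE 0.12).

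All 5 receptors had higher values in ethanol samples, and 4 of 5 with median scaling, where Eng turned. None passed. Kdr ran from 5.21 to 5.89 in controls, with a median of 5.51, and from 5.49 to 6.24 in ethanol samples, with a median of 5.73. The top value was that of ethanol 4, and 5 of 6 ethanol samples lay inside the control range. The difference was 0.28 (SE 0.13, unadjusted p = 0.0549, adjusted p = 0.854 in limma's test), and the 95% interval of the fold ran from 0.995 to 1.48. Without background correction the Kdr difference was 0.09 (unadjusted p = 0.121 in limma's test), and in the authors' normalized intensities it was also 0.09. Tek, the angiopoietin receptor Tie2, ran from 7.45 to 7.84 in controls and from 7.29 to 8.12 in ethanol samples, where ethanol 4 was the lowest of all 12. Its difference was 0.21 (SE 0.13), and without ethanol 4 its unadjusted p was under 0.05 while its adjusted p was not. The related Tie1, detected on 5 arrays of each group, differed by 0.07 (SE 0.12), Flt1 by 0.16 (SE 0.16), and Eng, the TGF-beta co-receptor endoglin, by 0.03 (SE 0.15).

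Both tested transporters had lower values in ethanol samples, without passing. Slc2a1 ran from 10.75 to 11.72 in controls, with a median of 11.19, and from 10.72 to 11.50 in ethanol samples, with a median of 10.82. Only ethanol 2, at 11.50, and ethanol 3, at 11.15, exceeded 10.83 among ethanol samples, and control 1, at 10.75, lay among the low ones. The difference was −0.28 (SE 0.18, adjusted p = 0.865 in limma's test), and the 95% interval of the fold ran from 0.633 to 1.07. Slco1a4, an organic anion transporter of the barrier, differed by −0.06 (SE 0.13).

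The transcription factors Sox17 and Sox18, of the SOXF group that acts in vessel development, differed by 0.05 (SE 0.17) and −0.05 (SE 0.18). Sox18 ran from 6.74 to 8.13 in controls and from 7.06 to 7.36 in ethanol samples. Control 2 (8.13) stood above the next control, control 4 (7.41), while control 1 was the lowest of all samples, so that the ethanol range lay inside that of controls. Without control 2 the difference of Sox18 turned to 0.12 and that of Sox17 was 0.18. The dimmer Sox17 probe had the opposite sign, at −0.13 (SE 0.19).

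Of the surface and secreted proteins, 2 of 6 had higher values in ethanol samples, and 0 of 6 with median scaling. Vwf, released by endothelium in haemostasis, ran from 7.22 to 8.49 in controls and from 7.06 to 7.88 in ethanol samples, a difference of −0.23 (SE 0.20). Control 4 and control 2 were its highest samples, and the other 4 controls lay inside the ethanol range. The surface antigen Ly6c1 differed by −0.11 (SE 0.16), the secreted vessel factor Egfl7 by −0.07 (SE 0.12), and Anxa3, an annexin, by −0.02 (SE 0.11). Emcn differed by 0.03 (SE 0.15) and the membrane protein Itm2a by 0.01 (SE 0.10). The dimmer Egfl7 probe had the opposite sign, at 0.04 (SE 0.15), and the dimmer Anxa3 probe the same sign, at −0.09 (SE 0.10).

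Of the pericyte genes, 5 of 6 had higher values in ethanol samples and 0 passed. Pdgfrb, the receptor through which pericytes are recruited, had the smallest p of all members. Its log2 level ran from 5.72 to 6.11 in controls, with a median of 5.87, and from 5.86 to 6.52 in ethanol samples, with a median of 6.12. Ethanol 3 held its top value, and 4 ethanol samples lay above every control, ethanol 1 among them by a narrow margin. The difference was 0.24 (SE 0.11, unadjusted p = 0.0512, adjusted p = 0.850 in limma's test), with a 95% interval of the fold from 0.999 to 1.40. The unadjusted p lay on either side of 0.05 across settings. It was 0.0440 with no detection filter and 0.0359 with array weights. It ran from 0.0199 without ethanol 4 to 0.128 without ethanol 3 when 1 array was left out. Without background correction the Pdgfrb difference was 0.09, with an unadjusted p of 0.116, and in the authors' normalized intensities it was also 0.09. The adjusted p was 0.641 or more in every setting of limma's test. Higd1b, a mitochondrial protein marking pericytes, differed by 0.16 (SE 0.14), and Vtn, the matrix protein vitronectin, by 0.10 (SE 0.09). Vtn was highest among controls in control 4, and without that sample its difference was 0.16. Abcc9 differed by 0.03 (SE 0.11). Mcam, an adhesion molecule found on endothelium as well as on mural cells, differed by 0.14 (SE 0.19), with 1 of its 2 dimmer probes of the opposite sign, at −0.18 (SE 0.19).

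Rgs5, a regulator of G-protein signalling that marks pericytes, varied most of all members, with a within-group SD of 0.49. It ran from 7.07 to 7.96 in controls and from 6.50 in ethanol 6 to 8.05 in ethanol 2, a difference of −0.01 (SE 0.24). The contractile genes Acta2 and Myl9 had lower values in ethanol samples, at −0.12 (SE 0.20) and −0.07 (SE 0.15). Without ethanol 3 and ethanol 4, Myl9 had a higher value in ethanol samples. The 4 tested probes of Acta2 differed by −0.14 to 0.17, of which 1 had a positive sign.

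The same comparison within each chip gave a different picture on each. On chip 1, 22 of 27 members had higher values in ethanol samples, with medians of 0.10 for endothelial and 0.15 for mural genes. On chip 2 it was 10 of 27, with medians of −0.04 and −0.06. Over all tested genes 50.1% and 52.5% were higher. Markers of some other cell types turned between the chips as well. Oligodendrocyte genes had higher values in ethanol samples in 8 of 8 on chip 1 and 0 of 8 on chip 2, with medians of 0.30 and −0.58. Astrocyte genes did so in 11 of 11 and 3 of 11 (medians 0.21 and −0.15), and microglial genes in 7 of 9 and 0 of 9 (medians 0.07 and −0.16). Further endothelial genes, described below, turned too, with 14 of 18 and 3 of 18 higher (medians 0.09 and −0.22). So did junction and basement membrane genes (medians 0.14 and −0.08), Wnt pathway genes (0.11 and −0.06) and further transport genes (0.09 and −0.05). The 2 choroid plexus genes (1.33 and −0.79) and 2 perivascular macrophage genes (0.24 and −0.13) did as well. Red blood cell genes changed sign the other way (−0.03 and 0.01). The remaining lists did not turn. Vascular signalling genes had medians of 0.17 and 0.00, perivascular fibroblast and meningeal genes 0.02 and 0.02. Striatal projection neuron genes had medians of −0.14 and −0.07, thalamus genes 0.10 and 0.39. The thalamus genes were highest in ethanol 3 on chip 1 and ethanol 4 on chip 2. Without these samples 1 of 6 thalamus genes was higher over both chips together, with a median of −0.15. Further mural genes, also described below, were higher in 1 of 8 and 2 of 8 (medians −0.08 and −0.14). The part of other cell types in the chip pattern of the vessel genes was not tested. The difference on chip 2 minus that on chip 1 was negative in 20 of 27 members, against 48.2% of all genes. In the test of this interaction 0 members passed (0% of all probes), and the smallest adjusted p of a member was 0.415 in limma's test. At an unadjusted p under 0.05 there were 3 members, Slco1a4, Emcn and Rgs5, where 9.94% of all genes reached it. The counts moved with single samples in both directions. On chip 1 the count was 17 of 27 without ethanol 2, without control 1 or without control 3, 21 without ethanol 3, 24 without control 2 and 25 without ethanol 1. On chip 2 it was 15 of 27 without control 4 and 13 without ethanol 4, 11 without ethanol 6, 9 without ethanol 5 or control 6, and 8 without control 5.

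**Figure D4:**
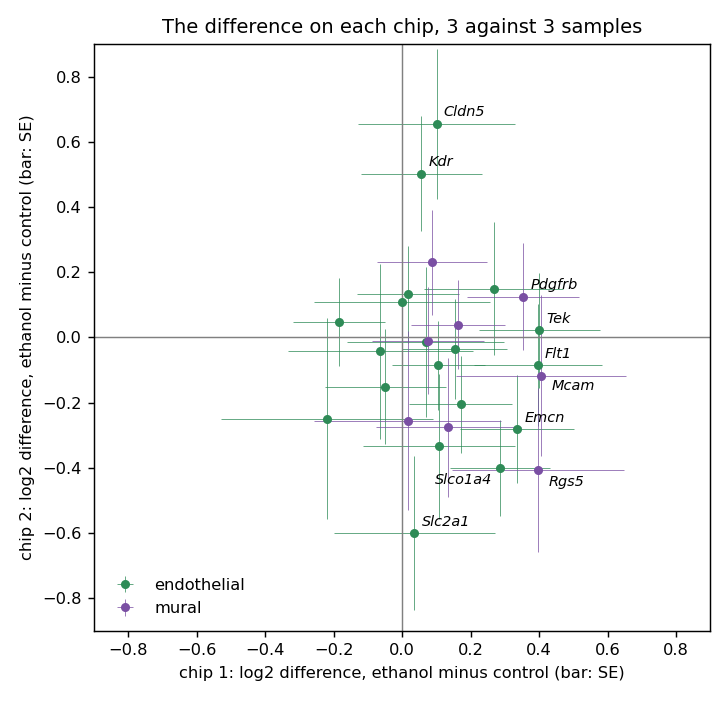
Log2 difference between ethanol and control samples of each member on chip 1 (horizontal) and chip 2 (vertical), 3 samples per group on each chip, with bars of 1 SE, endothelial genes in green and mural genes in purple. Most points lie right of 0, and 17 of 27 lie below 0, with Cldn5 (0.66) and Kdr (0.50) highest and Slc2a1 (−0.60) lowest on chip 2.

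On chip 1 the groups did not overlap in 4 members, where 12.9% of all genes were so separated, and on chip 2 in 4, where 16.9% were. The 4 on chip 1 were Tek, Flt1, Emcn and Pdgfrb, each with ethanol samples higher. Tek ran from 7.45 to 7.52 in controls and from 7.77 to 8.12 in ethanol samples. On chip 2 the separated genes were Cldn5 and Kdr, with ethanol samples higher, and Slc2a1 and Slco1a4, with ethanol samples lower. Slco1a4 there ran from 7.43 to 7.59 in controls and from 7.02 to 7.17 in ethanol samples, while on chip 1 it ran from 6.76 to 7.36 and from 7.27 to 7.54. Between the chips themselves, 0 members passed (0.00985% of all probes did). At an unadjusted p under 0.05 there were 5 members, each lower on chip 2, against 9.15% of all genes: Rgs5 (−0.53), Cldn5 (−0.46), Higd1b (−0.32), Tie1 (−0.27) and Egfl7 (−0.25).

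Other genes of the vessel wall gave the same count of 0 past the threshold. Of 18 tested ligands and receptors of vascular signalling, 14 had higher values in ethanol samples, with a median of 0.09, and 13 of 18 with median scaling. The vasoconstrictor Edn1 ran from 6.85 to 7.17 in controls and from 7.04 to 7.96 in ethanol samples, a difference of 0.55 (SE 0.14, adjusted p = 0.845 in limma's test). Vegfa, the ligand of Flt1 and Kdr, ran from 9.36 to 9.97 and from 9.81 to 10.29, a difference of 0.33 (SE 0.11, same adjusted p). Pdgfb, the ligand of Pdgfrb, differed by 0.04 (SE 0.09), Angpt2, a ligand of Tek, by 0.00 (SE 0.14), and Notch3, a receptor of mural cells, by 0.06 (SE 0.11). Angpt1 had 3 probes and no tested one.

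Of 14 junction and basement membrane genes, 8 had higher values, with a median of 0.09. In 13 of these genes the groups overlapped. Col4a2, a chain of the type IV collagen under the endothelium, separated the groups fully, as did 0.329% of all tested genes. It lay at 8.44 to 8.62 in controls and 8.63 to 8.88 in ethanol samples, a narrow margin. Its difference was 0.22 (SE 0.07, adjusted p = 0.845 in limma's test). Lama5, a laminin chain, differed by 0.29 (SE 0.13) and was detected on 3 control arrays and 6 ethanol arrays. Cdh5, the cadherin of endothelial junctions, differed by −0.03 (SE 0.14).

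Of 14 further transport genes of the barrier, 9 had higher values, and 6 of 14 with median scaling. Lrp8, a lipoprotein receptor, differed by 0.21 (SE 0.09), the amino acid transporter Slc38a5 by 0.29 (SE 0.12), and Mfsd2a, the lysolipid transporter that restrains transcytosis, by −0.29 (SE 0.14). Of 9 genes of the Wnt pathway that sets barrier properties, 7 had higher values, and 4 of 9 with median scaling. Wnt7a differed by 0.29 (SE 0.21) and Wnt7b by 0.16 (SE 0.14).

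Of 18 further endothelial genes, 8 had higher values, with a median of −0.04, and 5 of 18 with median scaling. Adgrl4, an adhesion receptor, differed by −0.37 (SE 0.16) and Slc39a10, a zinc transporter, by 0.19 (SE 0.09). Of 8 further mural genes, 0 had higher values and 8 lower, with a median of −0.08, where the mural members had 3 of 8 lower. Kcnj8, the pore of the potassium channel that Abcc9 belongs to, ran from 5.80 to 6.38 in controls and from 5.10 to 6.18 in ethanol samples, a difference of −0.40 (SE 0.18, adjusted p = 0.845 in limma's test). It was detected on 4 of 6 ethanol arrays. Smtn, the smooth muscle protein smoothelin, differed by −0.36 (SE 0.16) and Cspg4, the pericyte proteoglycan NG2, by −0.01 (SE 0.09). The count of 0 of 8 higher held with median scaling, without background correction, with an offset of 50 and in the authors' normalized intensities, and was 1 of 8 without ethanol 3 and ethanol 4.

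Without ethanol 3 and ethanol 4, the counts with higher values were 15 of 18 vascular signalling genes, 8 of 14 junction and basement membrane genes, 8 of 14 transport genes, 6 of 9 Wnt pathway genes and 9 of 18 further endothelial genes. Over all tested genes 50.8% were then higher. Without control 4 as well, the list counts were 16, 10, 8, 6 and 9 in the same order, and 1 of 8 further mural genes, where 51.4% of all tested genes were higher.

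Of cells that lie beside vessels, perivascular fibroblast and meningeal genes had 5 of 11 listed members tested, with mean log2 levels of 7.93 to 8.35 in controls and 8.07 to 8.44 in ethanol samples. Perivascular macrophage genes had 2 of 7 tested, at 5.31 to 5.61 and 5.07 to 5.83. Red blood cell genes had 5 of 9 tested, at 10.15 to 10.47 and 10.21 to 10.38. Choroid plexus genes had 2 of 8 tested, at 7.55 to 10.00 and 8.10 to 11.07, with the highest level in ethanol 3. Astrocyte genes, 11 of 11 tested, were at 9.51 to 10.15 and 9.46 to 10.32, and microglial genes, 9 of 10, at 8.66 to 8.95 and 8.50 to 9.05. Oligodendrocyte genes, 8 of 10, were at 12.17 to 12.96 and 11.63 to 12.96, and striatal projection neuron genes, 8 of 10, at 12.18 to 12.39 and 11.98 to 12.38. In each of these lists the groups overlapped, and 0 members passed.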

How the data were processed

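Total RNA of 12 caudate putamen samples was hybridised to Illumina bead arrays. The deposited raw table holds linear probe intensities with a detection p-value per probe and array, per the file headers. A table deposited by the authors holds linear intensities with nearly the same quartiles in all 12 columns. GenomeStudio 1.9.0 is named in the submitters' processing notes, and the sources used here give no other step.

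The neqc function of limma 3.58.1 (R 4.3.3) subtracted a background estimated through the detection p-values, added an offset of 16, applied quantile normalization and took log2. The offset makes log2 differences of dim probes smaller. Probes detected (p under 0.05) on 6 or more arrays were tested with lmFit and eBayes over all 12 arrays, two-sided, with Benjamini-Hochberg adjustment over 20296 probes. Intervals are 95%. The interaction of group with chip, and chip with group as covariate, were fitted alike. The fits were tested on simulated data. Arrays give no molecule counts, and their number limits the precision.

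The platform annotation named 1 symbol for 34885 probes, more than 1 for 18, and left 10378 unnamed. The brightest tested probe stands for a gene, and Mcam was placed with the mural genes. All members are named, with the 2 genes of smallest p of each further vessel list and fixed partners. Levels of different probes are not compared. All 12 arrays entered as separate samples. Any pair differed by at least 0.272 log2 units (root mean square), so no array was a copy of another. This cannot show that samples came from separate mice or litters. Members and lists were chosen with earlier results of these data known. The sources name no genome build for the arrays, and coordinates are those of RefSeq's promoter table. Further settings, chosen before and after seeing the data, are in the closing section.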

Additional observations from a re-analysis of the deposited data

Results flagged for a closer look

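For 27 members and both list levels, the highest and lowest of the 6 samples in each group were examined for a large gap to the next sample relative to the group's whole range. Of 58 groups 1 held such a sample, where chance flags about 1 in 20. Vtn, the matrix protein vitronectin, had a log2 level of 10.37 in control 4, against 10.01 to 10.11 in the other controls. Without control 4 the difference of Vtn between ethanol and control was 0.16 in place of 0.10.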

How the results depend on the processing

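Members past the adjusted threshold numbered 0 under all 29 other settings, with 0.314 as the smallest adjusted p of a member, and over all tested probes the count was 0 under each of 16 settings and 12 fits without 1 array, with 1010 to 2420 and 1013 to 1531 at an unadjusted p under 0.05. The member differences changed sign in 75 of 777 combinations of member and setting, and 8 of 27 members never did. Blocking by chip or replicate, fitting a variance trend, or changing the detection filter left each tested member's difference as it was. No sign could change under these settings, which are counted in the 777. Leaving out 1 array at a time gave a median of −0.03 to 0.08 for endothelial and 0.05 to 0.11 for mural genes, and under the other settings, the chips alone included, −0.04 to 0.10 and −0.06 to 0.15. Leaving out ethanol 2, ethanol 3 or control 3 put 12 of 27 members higher, and leaving out control 4 20 of 27. With Mcam among the endothelial genes their median was 0.03, and without it the mural median was 0.03. Whether the replicate numbers pair the samples could not be told from the values. The correlation of same-numbered samples' deviations ran from −0.14 to 0.28 over 6 pairs. The same-numbered control was the best match for ethanol replicates 2 and 6. With the replicate block, 0 probes passed. The medians stayed at 0.03 and 0.07, since a block with 1 sample of each group cannot move the difference. Probes differing between the chips numbered 15 without background correction and in the authors' normalized intensities, 1 when detected on all arrays, 0 with median scaling, and 0 to 1 without each array in turn, against 2, and the cause was not tested. Dim genes such as Kdr, Ocln, Tie1 and Lama5 were not detected on every array. The settings without ethanol 3, ethanol 4 or control 4 and those on the chip terms were chosen after seeing the data.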
